A study of Mus musculus with 22 samples.

Results

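The secretory lineage transcription factors described here are 10 genes that direct intestinal stem cell progeny towards absorptive or secretory fate: Atoh1, Spdef, Gfi1, Sox9, Klf4, Foxa1, Foxa2, Foxa3, Hes1 and Creb3l1. They were chosen by name, as the probes whose gene name on the array equals one of these symbols. The array carries 12 such probes among 41174 distinct probes, 1 for each gene except Sox9, which has 3. Each probe was followed apart in all 22 arrays.

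The study measured total RNA of ileum and colon from male C57BL/6 mice on chow diet with 1-colour Agilent whole mouse genome arrays, and its title concerns intestinal SIRT1, an NAD-dependent protein deacetylase. The groups were young ileum of Flox controls (4 arrays) and SIRT1 iKO mice (4 arrays) at 6 to 8 weeks, aged ileum of Flox controls (3 arrays) and SIRT1 iKO mice (4 arrays) at 24 months, and aged colon of Flox controls (3 arrays) and SIRT1 iKO mice (4 arrays) at 24 months. The labels do not state what the i in iKO stands for, which Cre was used, which exons were removed, whether Flox controls carried any Cre, or whether the ileum and colon samples were taken from shared animals. No label says that arrays of a group came from separate animals, although the design text counts mice, so p-values measure the spread between these arrays.

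In the gut epithelium, a progenitor in which Notch signalling is active expresses the repressor Hes1, which silences Atoh1, and becomes absorptive. A progenitor that escapes Notch keeps Atoh1, the basic helix-loop-helix factor without which no goblet, Paneth or enteroendocrine cells form. Gfi1 and Spdef act below Atoh1 in goblet and Paneth cell maturation, Sox9 is needed for Paneth cells, Klf4 for colonic goblet cells, Foxa1 and Foxa2 for mucin genes and enteroendocrine subtypes, and Creb3l1 is a membrane-bound factor of the secretory pathway.

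The probes of 4 genes are printed, to show the stretch of RNA that the values of Atoh1, Sox9, Hes1 and Creb3l1 report on: the last 3 cross an exon junction, and that of Atoh1 has no stop codon in any of its 3 forward frames. The scanner files place the Atoh1 probe at chr6:64717912-64717971 of mouse build mm7 on the plus strand. They give Sox9 probe 1 a range of chr11:112892041-112892893 on the plus strand, the Hes1 probe chr16:29738743-29739038 on the plus strand, and the Creb3l1 probe chr2:91834107-91836894 on the minus strand. These last ranges are wider than the 60 bases of a probe, so the probes join exons. The Spdef probe lies at chr17:25900336-25900395 and the Foxa2 probe at chr2:147783819-147783878, both on the minus strand; which exon or untranslated region they fall in was not analysed here, as the mm7 gene models were not used.
Atoh1 probe: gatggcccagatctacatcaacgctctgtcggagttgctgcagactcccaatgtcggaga
Sox9 probe 1: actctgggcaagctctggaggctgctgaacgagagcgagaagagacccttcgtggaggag
Hes1 probe: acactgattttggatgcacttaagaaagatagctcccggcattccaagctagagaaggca
Creb3l1 probe: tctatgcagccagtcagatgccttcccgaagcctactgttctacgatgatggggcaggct

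The 250 bases before the transcription start are shown for the foremost pair, Atoh1 and Spdef, and for Foxa2. Foxa2 was the 1 member called by genotype, in aged ileum only, and that call stood near the threshold. The sequences come from RefSeq (GRCm38.p6), whose promoter table held 7 of the 10 members. Capitals mark matches on either strand to TATTTAC or TGTTTAC (letters that forkhead factors recognise), CAGCTG (an E-box) or TGGGAA (the core that the Notch partner Rbpj recognises). The windows are chr6:64728875-64729124 on the plus strand for Atoh1, chr17:27728952-27729201 on the minus strand for Spdef, and chr2:148046970-148047219 on the minus strand for Foxa2. Foxa2 has 3 annotated starts, of which the outermost is shown. The starts used for Spdef and Foxa1 lie inside the gene's outer bound, which for Spdef is chr17:27731003.
Atoh1 promoter: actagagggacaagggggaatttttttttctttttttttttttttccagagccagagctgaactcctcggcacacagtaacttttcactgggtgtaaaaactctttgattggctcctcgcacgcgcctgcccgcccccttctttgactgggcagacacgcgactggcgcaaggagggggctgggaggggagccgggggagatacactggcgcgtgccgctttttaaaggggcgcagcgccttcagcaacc
Spdef promoter: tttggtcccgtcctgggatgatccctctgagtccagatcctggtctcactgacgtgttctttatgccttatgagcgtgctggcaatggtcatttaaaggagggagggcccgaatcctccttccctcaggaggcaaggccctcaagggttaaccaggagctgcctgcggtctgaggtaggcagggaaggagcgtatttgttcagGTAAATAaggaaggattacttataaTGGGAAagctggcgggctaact
Foxa2 promoter: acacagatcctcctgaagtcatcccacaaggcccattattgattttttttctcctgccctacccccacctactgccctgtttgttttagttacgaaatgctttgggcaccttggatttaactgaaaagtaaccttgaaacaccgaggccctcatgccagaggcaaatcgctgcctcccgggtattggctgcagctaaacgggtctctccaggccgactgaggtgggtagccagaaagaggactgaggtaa

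The Spdef window held TATTTAC on the reverse strand, 47 bases before the start, and TGGGAA, 22 bases before it. Of 32851 windows of this length in the table, 2.73% held TATTTAC and 21.6% held TGGGAA. The windows of Atoh1 and Foxa2 held none of the 4 motifs. Among the other members with an entry, Foxa1 held TGTTTAC (3.17% of all windows) and Klf4 held CAGCTG (13.0% of all windows), while Gfi1 and Foxa3 held none. The motifs did not overlap one another. A match here describes letters only.

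Levels are given as log2 of the background-subtracted signal over the array's 75th percentile, so 0 is the brightness of that percentile and values of different probes are not compared. Before scaling, that percentile was 918 to 1231 units on ileum arrays and 1425 to 1751 units on colon arrays, and 49.8% to 61.5% of ileum spots and 70.4% to 79.7% of colon spots were well above background. Ileum arrays lay on slides 1 to 4 and colon arrays on slides 5 to 8, so tissue and slide set cannot be told apart. Young Flox arrays all lay at position 1 of a slide, young iKO arrays at position 2, colon Flox arrays at position 3 and colon iKO arrays at position 4, so in these pairs genotype and position cannot be told apart, and neither can age and position in the ileum. The tissue labels matched their markers: Fabp6, the ileal bile acid binding protein, averaged 3.46 in aged Flox ileum and -4.20 in aged Flox colon, while Car1, a carbonic anhydrase of the colon, averaged 0.89 and 8.53. Neither Sirt1 probe differed between genotypes at an adjusted p under 0.05. The lower of the Sirt1 adjusted p-values was 0.187, for the second probe in aged ileum, at a difference of -0.50 ± 0.13 (SE); all 4 iKO arrays lay between 0.28 and 0.39 and the 3 Flox arrays between 0.59 and 1.09. Because the removed exons are not stated, whether either probe reads the deleted part was not tested.

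In aged ileum Foxa2 was lower in iKO than in Flox mice, and no other member passed the test of genotype there, in young ileum or in aged colon. The counts were 0 of 11 member probes tested in young ileum (against 0.0359% of all 22281 probes called), 1 of 11 in aged ileum (0.148% in either direction, 0.0494% lower) and 0 of 12 in aged colon (0.103% of 29176), by limma with Benjamini-Hochberg adjusted p under 0.05. At an unadjusted p under 0.05 the counts were 1, 1 and 2 member probes. Over all probes tested they were 932 of 22281, 2560 of 22281 and 2105 of 29176. The median difference over the member probes was -0.06 in young ileum, -0.09 in aged ileum and 0.12 in aged colon, beside -0.01, 0.02 and -0.02 over all probes tested. Sox9 probe 1 was well above background in 1 of 4 aged iKO ileum arrays and in no other ileum array, so it was not tested within the ileum.

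**Figure D1:**
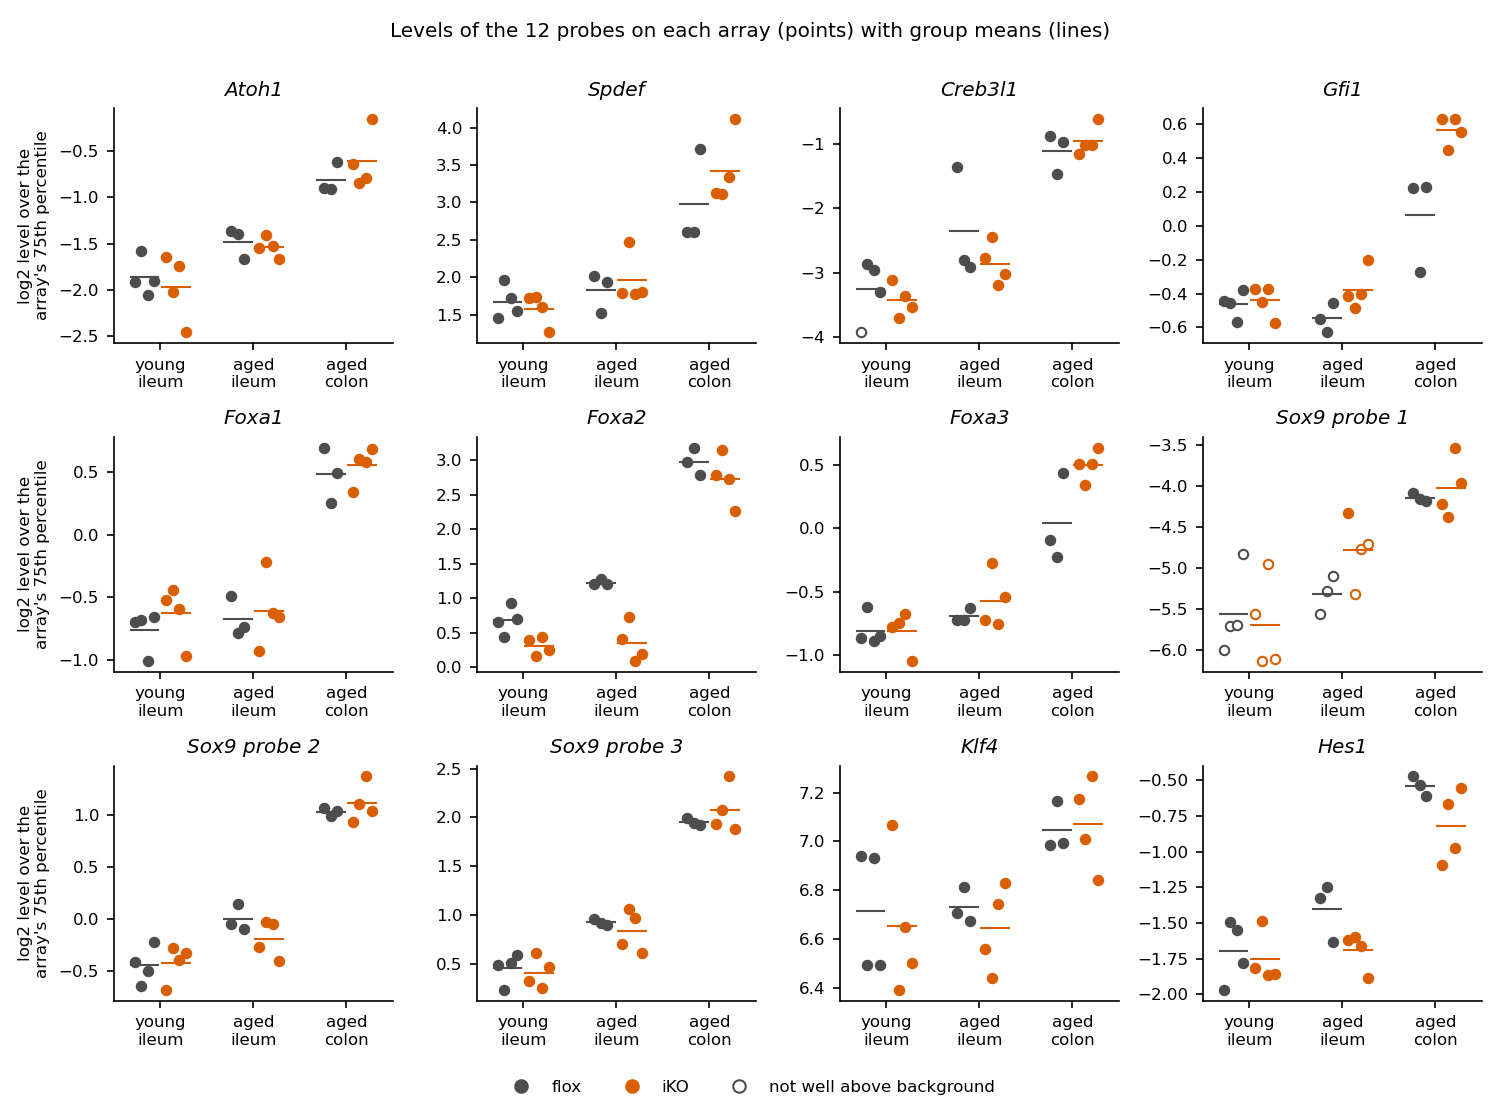
Each panel plots 1 probe, with the log2 level over the array's 75th percentile on the vertical axis and the 3 tissue and age classes on the horizontal axis; points are arrays, lines are group means, and open points are not well above background. Foxa2 in aged ileum separates into Flox arrays at 1.20 to 1.28 and iKO arrays at 0.09 to 0.72, and the colon arrays of most probes lie above the ileum arrays.

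Atoh1, the switch into the secretory lineage, measured -1.92, -1.58, -2.06 and -1.90 in the young Flox ileum arrays and -1.65, -2.02, -1.75 and -2.47 in the young iKO arrays. In aged ileum it measured -1.37, -1.40 and -1.67 in Flox and -1.55, -1.40, -1.53 and -1.67 in iKO. The genotypes overlapped at both ages, and the single lowest array was a young iKO one. The difference was -0.10 ± 0.16 (SE) in young ileum and -0.06 ± 0.17 in aged ileum, with 95% confidence intervals of -0.45 to 0.24 and -0.44 to 0.32. In aged colon Atoh1 measured -0.90, -0.91 and -0.62 in Flox and -0.63, -0.84, -0.78 and -0.15 in iKO. Those groups overlapped too, with 1 iKO array well above the rest, and the difference of 0.21 ± 0.19 had an interval of -0.23 to 0.65 (adjusted p = 0.901).

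Spdef, the ETS-domain factor of goblet and Paneth cell maturation, showed the same lack of separation. Its young ileum values were 1.45, 1.96, 1.72 and 1.55 in Flox and 1.72, 1.73, 1.61 and 1.26 in iKO. Its aged ileum values were 2.02, 1.52 and 1.94 in Flox and 1.79, 2.47, 1.77 and 1.80 in iKO, where replicate 2 stood apart from the rest. The difference was -0.09 ± 0.18 (interval -0.48 to 0.30) in young ileum and 0.13 ± 0.19 (interval -0.29 to 0.55) in aged ileum. Spdef in aged colon measured 2.60, 2.61 and 3.71 in Flox and 3.13, 3.11, 3.34 and 4.12 in iKO. In each colon group 1 array, replicate 4, was higher than the others by more than the spread among them. The colon difference of 0.45 ± 0.35 had an interval of -0.38 to 1.28 and an adjusted p of 0.885, so neither its size nor its sign was resolved.

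Gfi1, a zinc finger repressor that keeps goblet and Paneth precursors from the endocrine path, was the member with the smallest colon p-value. It measured 0.22, -0.27 and 0.23 in Flox colon and 0.63, 0.45, 0.63 and 0.56 in iKO colon, without overlap. The difference of 0.50 ± 0.15 (1.42-fold) had an unadjusted p of 0.0106 and an adjusted p of 0.468, and it did not pass the test. In young ileum Gfi1 differed by 0.02 ± 0.08 and in aged ileum by 0.17 ± 0.09 (adjusted p = 0.491), with overlapping groups in both. Creb3l1 differed by -0.17 ± 0.32, -0.50 ± 0.35 and 0.16 ± 0.19 in young ileum, aged ileum and colon. In aged ileum 1 Flox array stood at -1.35, against -2.80 and -2.91 in the other Flox arrays and -3.19 to -2.45 in iKO.

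Goblet cell markers are given beside the colon values of Spdef, Gfi1 and Foxa3, none of which passed the test. The summed level of the 15 goblet list genes on the array was 1410 to 1630 times the 75th percentile in Flox colon and 1920 to 2210 in iKO colon. Each list gene was well above background on some array of each group, not necessarily on all. Of 22 goblet probes tested in colon 15 were higher in iKO (median difference 0.23, beside -0.02 over all probes). By limma 0 passed, and 4 had an unadjusted p under 0.05, beside 2105 of 29176 over all probes tested. The smallest goblet p-values belonged to Spink4 (1.01 ± 0.23, adjusted p = 0.322), Retnlb (3.53 ± 1.11, adjusted p = 0.515) and Ern2 (0.58 ± 0.19, adjusted p = 0.520). The part of goblet cell number in the values of the factors was not tested. In whole-tissue RNA, fewer cells of a type and less RNA per cell cannot be told apart.

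Foxa2, a winged-helix factor, was the 1 member that passed the test of genotype, and it did so in aged ileum only. In aged ileum it measured 1.20, 1.28 and 1.20 in the Flox arrays and 0.42, 0.72, 0.09 and 0.19 in the iKO arrays. All 4 iKO arrays lay below all 3 Flox arrays, and the iKO arrays spread more widely (SD 0.28 against 0.04). Foxa2 was lower by a log2 difference of -0.87 ± 0.15 (SE; 95% confidence interval -1.19 to -0.56), or 1.83-fold, with an adjusted p of 0.035. Its probe was printed at 10 places on every array, 7 to 10 of them unflagged, and the SD among spots of an array was 0.016 to 0.096. On the 1 slide that held both aged ileum genotypes, the iKO array was lower by 0.55. At position 3 the iKO array measured 0.42 and the Flox arrays 1.20 and 1.28, and at position 4 the Flox array measured 1.20 and the iKO arrays 0.72, 0.09 and 0.19.

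The call of Foxa2 stood near the threshold. The adjusted p was 0.142 with the aged ileum arrays alone, 0.114 with no filter on dim probes, 0.461 with slide as a fixed factor (difference -0.78), and 0.321 with position on the slide as a term. It was lost in 12 of the 15 fits that left out 1 ileum array, with differences of -0.997 to -0.785 and adjusted p up to 0.143; only the fits without young Flox replicate 2, young Flox replicate 3 or aged iKO replicate 2 kept it.

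**Figure D2:**
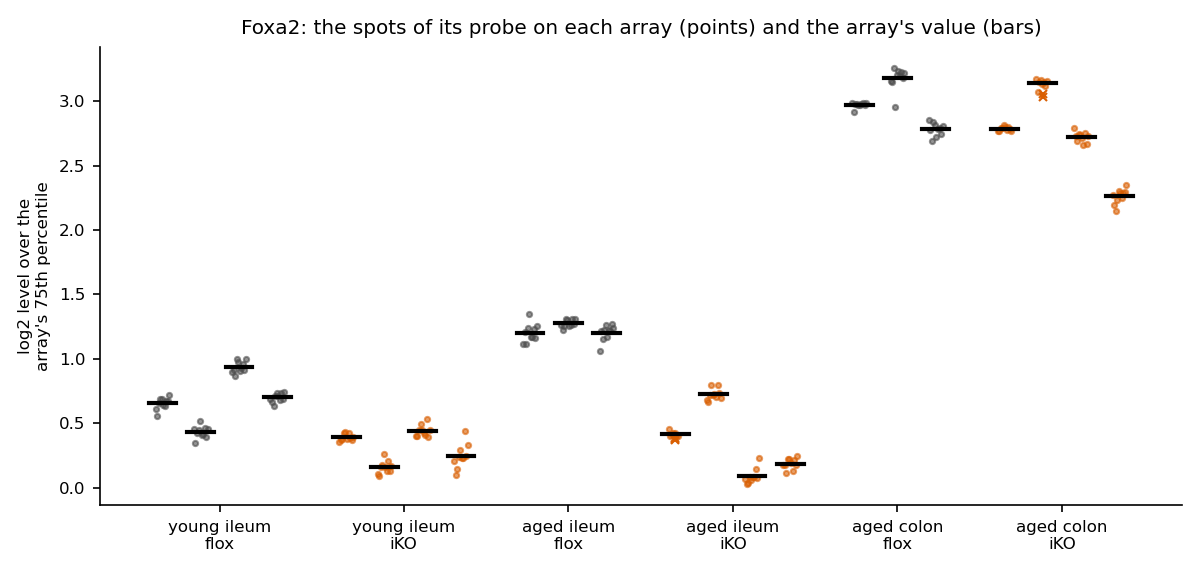
Foxa2 is plotted spot by spot, with the log2 level over the array's 75th percentile on the vertical axis and arrays grouped on the horizontal axis; points are the unflagged spots of the probe, crosses are flagged spots that were left out, and bars are the array's value. The spots of an array lie close together, the aged Flox ileum bars lie at 1.20 to 1.28, and the aged iKO ileum bars at 0.09 to 0.72.

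Foxa2 in young ileum measured 0.65, 0.43, 0.94 and 0.70 in Flox and 0.39, 0.16, 0.44 and 0.24 in iKO, where the highest iKO array lay just above the lowest Flox array. That difference of -0.37 ± 0.14 had an unadjusted p of 0.017 and an adjusted p of 0.999, so it did not pass. On each of the 4 slides that held both young genotypes the iKO array was the lower, by 0.04 to 0.69. Foxa2 in colon measured 2.97, 3.18 and 2.78 in Flox and 2.79, 3.14, 2.72 and 2.26 in iKO, where the groups overlapped (-0.25 ± 0.21, adjusted p = 0.896). The test of whether the genotype difference changed with age gave -0.50 ± 0.20 (adjusted p = 1.00), and with tissue 0.62 ± 0.28 (adjusted p = 0.807). The Foxa2 difference was therefore not shown to be particular to aged ileum. Over all members, 0 of 11 passed the test of genotype by age (0.00% of all probes) and 0 of 12 that of genotype by tissue (0.0205%).

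Values of several cell type lists differed in one direction beside Foxa2 in the aged ileum, although no probe of any list passed the test. Of 20 enteroendocrine probes tested, from 17 of 18 list genes, 3 were higher in iKO (median -0.19), 0 passed the limma test and 7 had an unadjusted p under 0.05. Their summed level was 180 to 246 in aged Flox and 155 to 190 in aged iKO ileum, against 179 to 269 and 150 to 205 in young ileum. The lowest enteroendocrine p-values were those of Insl5 (-1.43 ± 0.30, adjusted p = 0.106), Chga (-0.74 ± 0.17, adjusted p = 0.137) and Chgb (-0.70 ± 0.20, adjusted p = 0.223). Fibroblast probes were lower in iKO for 16 of 16 tested, with a median of -0.49 and sums of 86.6 to 116 in Flox and 58.6 to 92.8 in iKO. Smooth muscle probes were lower for 15 of 15 (median -0.28; sums 421 to 485 and 301 to 471). Endothelial probes were lower for 13 of 13 (median -0.29; sums 11 to 14.6 and 9.49 to 11.7). Epithelial probes were higher for 10 of 14 (median 0.05; sums 1740 to 1830 and 1770 to 1900). T cell probes were higher for 13 of 13 (median 0.54; sums 9.82 to 19.1 and 10.8 to 34.5). B and plasma cell probes were higher for 8 of 10 (median 0.79; sums 76.4 to 151 and 61.9 to 146), and Paneth probes for 18 of 21 (median 0.16; sums 3550 to 4230 and 3840 to 4390). By limma 0 fibroblast, smooth muscle, endothelial, epithelial, T cell, B cell and Paneth probes passed, and 9, 1, 3, 1, 0, 0 and 2 had an unadjusted p under 0.05. Over all probes tested in this comparison, 2560 of 22281 had an unadjusted p under 0.05. Genes not well above background in any Flox array were Cd4 of the T cell list and Cr2, Fcer2a and Pax5 of the B cell list; Defa-rs10 of the Paneth list was so in both groups. Higher in iKO on the remaining cell type lists were 2 of 13 fat and pancreas probes (median -0.72) and 2 of 11 neuron and glia probes (-0.28). So were 11 of 29 absorptive (-0.23) and 6 of 17 stem and crypt base probes (-0.07). Macrophage, tuft and goblet probes were higher for 7 of 17, 7 of 14 and 14 of 22 (medians -0.03, -0.01 and 0.05). The part of any of these lists in the Foxa2 value was not tested.

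**Figure D3:**
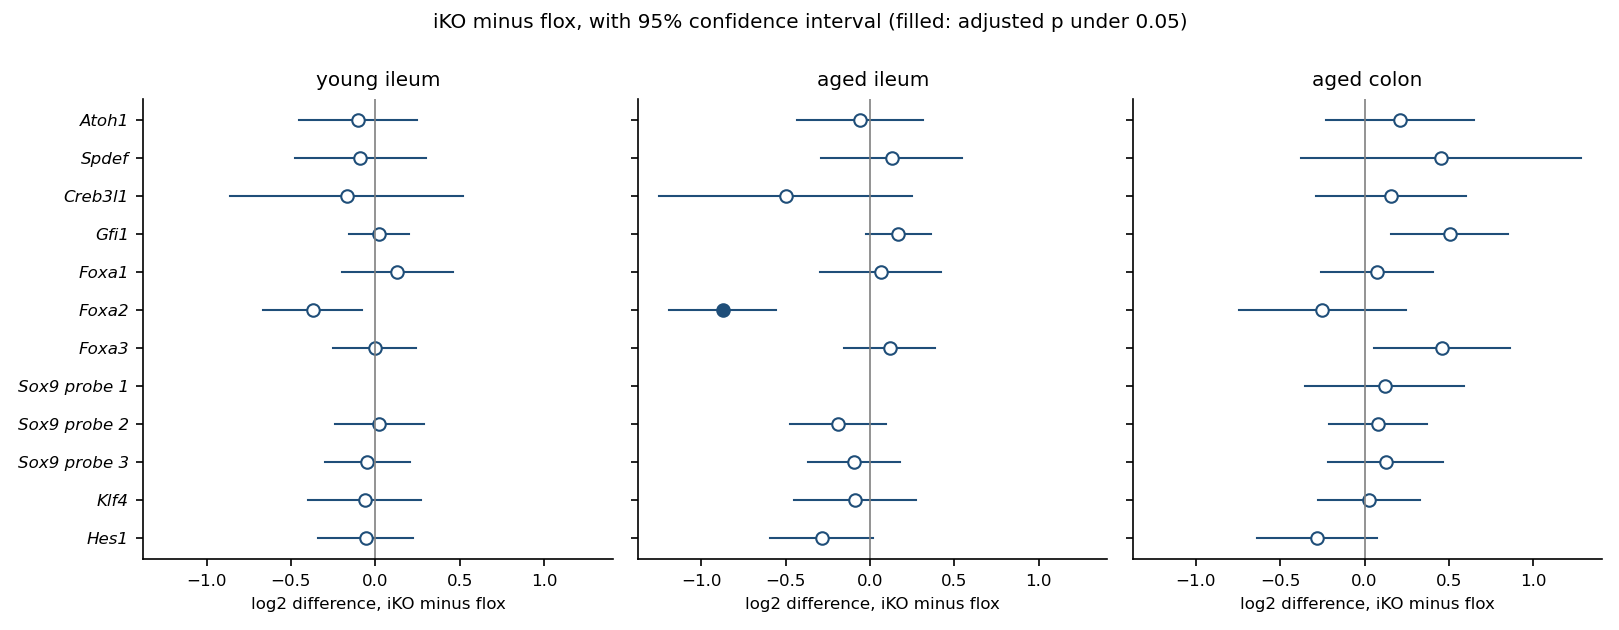
The log2 difference of iKO minus Flox is plotted on the horizontal axis for each probe in 3 panels, with 95% confidence intervals as lines and filled points where the adjusted p was under 0.05. Only Foxa2 in aged ileum (-0.87) is filled, and the intervals of Atoh1 and Spdef include 0 in all 3 panels.

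Foxa1 and Foxa3, the relatives of Foxa2, did not pass the test by genotype. Foxa1 differed by 0.13 ± 0.15 in young ileum, 0.06 ± 0.17 in aged ileum and 0.07 ± 0.14 in colon, with overlapping groups throughout. The difference of Foxa3 had an interval of -0.25 to 0.24 in young ileum and was 0.12 ± 0.12 in aged ileum. In colon Foxa3 measured -0.09, -0.23 and 0.43 in Flox and 0.50, 0.34, 0.51 and 0.63 in iKO, so 1 Flox array reached into the iKO range. That difference of 0.46 ± 0.17 had an unadjusted p of 0.032 and an adjusted p of 0.618.

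Sox9, an HMG-box factor of crypt progenitors and Paneth cells, differed by 0.02 ± 0.12 and -0.05 ± 0.12 in young ileum at probes 2 and 3, and by -0.19 ± 0.13 and -0.09 ± 0.13 in aged ileum. In colon the 3 probes differed by 0.12 ± 0.20, 0.08 ± 0.12 and 0.12 ± 0.15, and the groups overlapped at each. Klf4, a Krüppel-like factor of differentiated epithelium, differed by -0.06 ± 0.16, -0.09 ± 0.17 and 0.03 ± 0.13 in young ileum, aged ileum and colon. None of these intervals excluded 0.

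Hes1, the Notch effector that opposes Atoh1, measured -1.32, -1.25 and -1.63 in aged Flox ileum and -1.62, -1.60, -1.66 and -1.88 in aged iKO ileum. In colon it measured -0.47, -0.54 and -0.61 in Flox and -1.09, -0.67, -0.97 and -0.55 in iKO. In aged ileum 1 Flox array, and in colon 1 iKO array, lay within the range of the other group. The differences were -0.29 ± 0.14 (adjusted p = 0.459) and -0.28 ± 0.15 (adjusted p = 0.791), and in young ileum -0.06 ± 0.13, so Hes1 did not pass the test in any of the 3 comparisons.

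With age, Foxa2 and Sox9 probe 3 were higher in Flox ileum, and Sox9 probe 3 alone in iKO ileum. These were 2 of 11 member probes in Flox (8.00% of all probes called in either direction, 2.98% higher) and 1 of 11 in iKO (11.0% in either direction, 5.12% higher). Sox9 probe 3 measured 0.49, 0.23, 0.51 and 0.59 in young Flox and 0.96, 0.92 and 0.90 in aged Flox ileum, and 0.32, 0.61, 0.25 and 0.46 in young iKO and 0.70, 1.06, 0.97 and 0.61 in aged iKO ileum. The Flox groups were well apart, while in iKO the highest young array and the lowest aged array lay at the same 0.61. Sox9 rose by 0.47 ± 0.13 in Flox (adjusted p = 0.039) and by 0.43 ± 0.12 in iKO (adjusted p = 0.035). Sox9 probe 2, 10 spots of a different stretch, gave 0.44 ± 0.13 (adjusted p = 0.056) and 0.23 ± 0.12 (adjusted p = 0.241).

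Foxa2 rose with age in Flox ileum by 0.55 ± 0.15 (adjusted p = 0.039), from 0.43 to 0.94 in young arrays to 1.20 to 1.28 in aged arrays. In iKO ileum it differed by 0.04 ± 0.14 (adjusted p = 0.868), with young arrays at 0.16 to 0.44 and aged arrays at 0.09 to 0.72. As given above, the difference between these age effects did not pass its own test, and the comparison shares its aged arrays with that of genotype. Atoh1 was higher with age by 0.39 ± 0.17 in Flox (adjusted p = 0.179) and 0.43 ± 0.16 in iKO (adjusted p = 0.10), and Spdef by 0.16 ± 0.19 and 0.38 ± 0.18 (adjusted p = 0.651 and 0.193), none past the test. Of the 11 probes 10 had positive age differences in each genotype, with medians of 0.30 and 0.23 beside -0.03 and -0.02 over all probes. The Flox calls of Foxa2 and Sox9 and the iKO call of Sox9 were lost without the filter on dim probes and with the contrast's groups alone, at adjusted p of 0.060 to 0.114. Leaving out 1 array at a time ended the Flox call of Foxa2 in 7 of 15 fits (without young Flox 1, 2 or 4, any aged Flox array, or aged iKO 1), that of Sox9 in 8 (without any Flox array or aged iKO 3) and the iKO call of Sox9 in 5 (without young iKO 1 or 3, or aged iKO 1, 2 or 3). Among cell type lists, endothelial probes were higher with age for 13 of 13 in both genotypes (sums 7.59 to 8.66 in young and 11 to 14.6 in aged Flox ileum, 6.30 to 8.31 and 9.49 to 11.7 in iKO), 7 of them past the test in Flox and 6 in iKO. Macrophage probes passed as higher for 2 of 17 in Flox and 3 of 17 in iKO. Paneth probes were higher for 1 of 21 in each genotype, with 3 passing as lower in Flox and 2 in iKO (sums 4310 to 5190 in young and 3550 to 4230 in aged Flox ileum, 4550 to 5910 and 3840 to 4390 in iKO). Epithelial probes passed as lower for 2 of 14 in each genotype (sums 1950 to 2210 in young and 1740 to 1830 in aged Flox ileum, 1870 to 2400 and 1770 to 1900 in iKO), and absorptive probes for 5 of 29 in Flox and 4 of 29 in iKO. Of all 22281 probes tested, 2.98% passed as higher and 5.02% as lower with age in Flox, and 5.12% and 5.86% in iKO. The part of these cell types in the Sox9 and Foxa2 values was not tested.

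**Figure D4:**
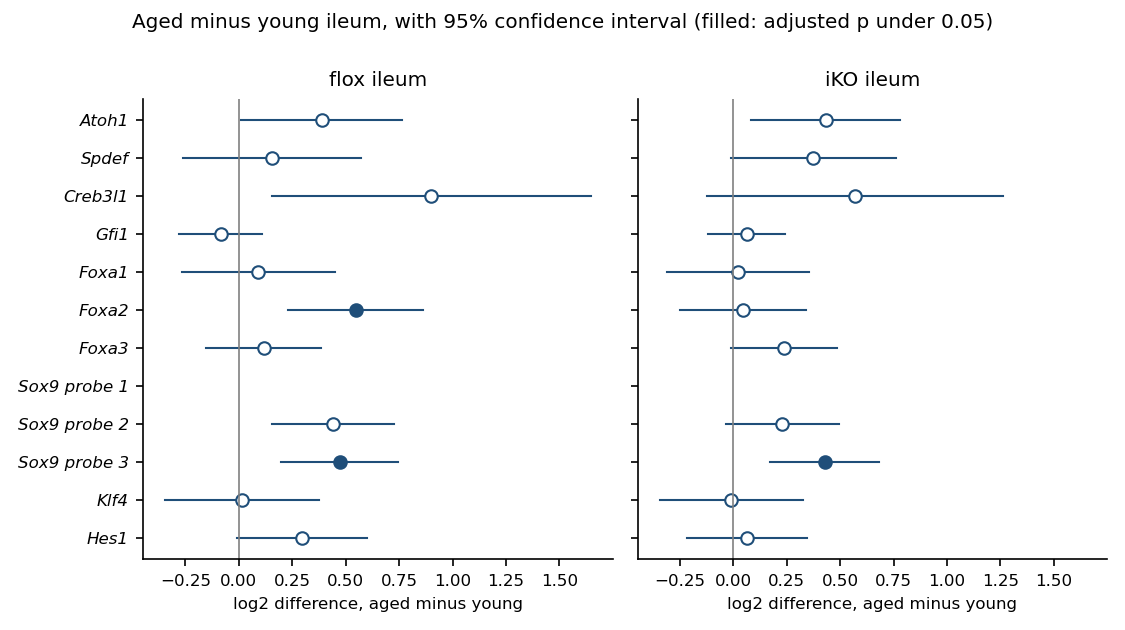
The log2 difference of aged minus young ileum is plotted on the horizontal axis for each probe in Flox and in iKO mice, with 95% confidence intervals as lines and filled points where the adjusted p was under 0.05. Foxa2 (0.55) and Sox9 probe 3 (0.47) are filled in Flox and Sox9 probe 3 (0.43) in iKO, and 10 of 11 points lie above 0 in each panel.

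Most of the factors were higher in colon than in ileum. In aged Flox mice 11 of 12 member probes were higher in colon (32.2% of all 29246 probes called in either direction, 20.2% higher), and in aged iKO mice 12 of 12 (42.9% in either direction, 25.1% higher). The median colon minus ileum difference was 1.03 in Flox and 1.11 in iKO, beside 0.12 and 0.10 over all probes tested. Sox9 probe 1 was tested through its colon signal alone, being well above background in 0 of 3 Flox and 1 of 4 iKO ileum arrays; without it the counts were 10 of 11 and 11 of 11, with medians of 1.03 and 1.16. The 2 comparisons share no array, but they were fitted together with a common estimate of the spread per probe. Both set the ileum slide set against the colon slide set. The median over all probes moved to -0.05 and -0.07 when the background was corrected with normexp, and the share of higher calls among all calls moved from 62.8% to 43.6% in Flox and from 58.6% to 41.7% in iKO; the members' medians were then 0.83 and 1.04.

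Spdef in Flox mice lay at 1.52 to 2.02 in ileum and 2.60 to 3.71 in colon, and in iKO mice at 1.77 to 2.47 and 3.11 to 4.12, without overlap in either. It was higher in colon by 1.15 ± 0.34 in Flox (2.21-fold, adjusted p = 0.022) and by 1.47 ± 0.29 in iKO (2.76-fold, adjusted p = 0.0018). The Flox call of Spdef was lost with the Flox arrays alone (adjusted p = 0.058), without aged ileum Flox replicate 3 (0.077) and without colon Flox replicate 4 (difference 0.78, adjusted p = 0.087). Atoh1 was higher by 0.67 ± 0.17 in Flox (1.59-fold, adjusted p = 0.011) and 0.94 ± 0.15 in iKO (1.92-fold, adjusted p = 0.00037). The highest ileum array of Atoh1 was at -1.37 and the lowest colon array at -0.91, so the tissues did not overlap in either genotype.

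Foxa2 showed the largest colon difference of the 12 probes, 1.75 ± 0.21 in Flox (3.36-fold) and 2.37 ± 0.18 in iKO (5.18-fold). Its ileum arrays lay at 0.09 to 1.28 and its colon arrays at 2.26 to 3.18. Foxa1 was higher by 1.15 ± 0.17 and 1.16 ± 0.15, and Foxa3 by 0.73 ± 0.17 and 1.07 ± 0.15. All 3 Foxa genes passed in both genotypes and kept the call in each alternative run. Gfi1 was higher by 0.61 ± 0.13 (adjusted p = 0.0052) and 0.94 ± 0.12, the former at an adjusted p of 0.055 with the Flox arrays alone.

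Creb3l1 was higher in colon by 1.25 ± 0.35 in Flox (adjusted p = 0.019) and 1.90 ± 0.31 in iKO. Its Flox values of -1.35, -2.80 and -2.91 in ileum and -0.88, -1.47 and -0.98 in colon overlapped through the first ileum array. The Flox call of Creb3l1 was lost with the Flox arrays alone (adjusted p = 0.094) and without any of aged ileum Flox replicates 3 and 4 or colon Flox replicates 1 and 4 (adjusted p of 0.057 to 0.078).

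Sox9 was higher in colon at the probes measured in both tissues. Probes 2 and 3, which lie on different stretches of the gene, gave 1.03 ± 0.13 and 1.03 ± 0.15 in Flox and 1.30 ± 0.11 and 1.24 ± 0.13 in iKO. Probe 1 was not well above background in Flox ileum and has only a bound there. With the background subtraction used here, the bound placed its Flox colon signal at least 1.15-fold higher. The limma adjusted p of 0.0039 belongs to the measured difference of 1.17 ± 0.25 (means -4.14 in colon and -5.31 in ileum), not to the bound. In iKO, where 1 of 4 ileum arrays measured probe 1, the groups overlapped (measured means -4.02 in colon and -4.78 in ileum). After normexp correction its differences were 0.09 (adjusted p = 0.628) and -0.015 (adjusted p = 0.932), so it adds no support to those of probes 2 and 3. Klf4 was higher by 0.43 ± 0.11 in iKO (adjusted p = 0.0093), while in Flox its difference of 0.32 ± 0.13 did not pass (adjusted p = 0.082) although the 3 colon arrays (6.99 to 7.17) lay above the 3 ileum arrays (6.67 to 6.81). With quantile normalization the Flox difference of Klf4 was 0.54 and passed (adjusted p = 0.0055). Hes1 was higher in colon as well, by 0.86 ± 0.15 in Flox and 0.87 ± 0.13 in iKO, so both the Notch effector and its target Atoh1 were at a higher level in colon.

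**Figure D5:**
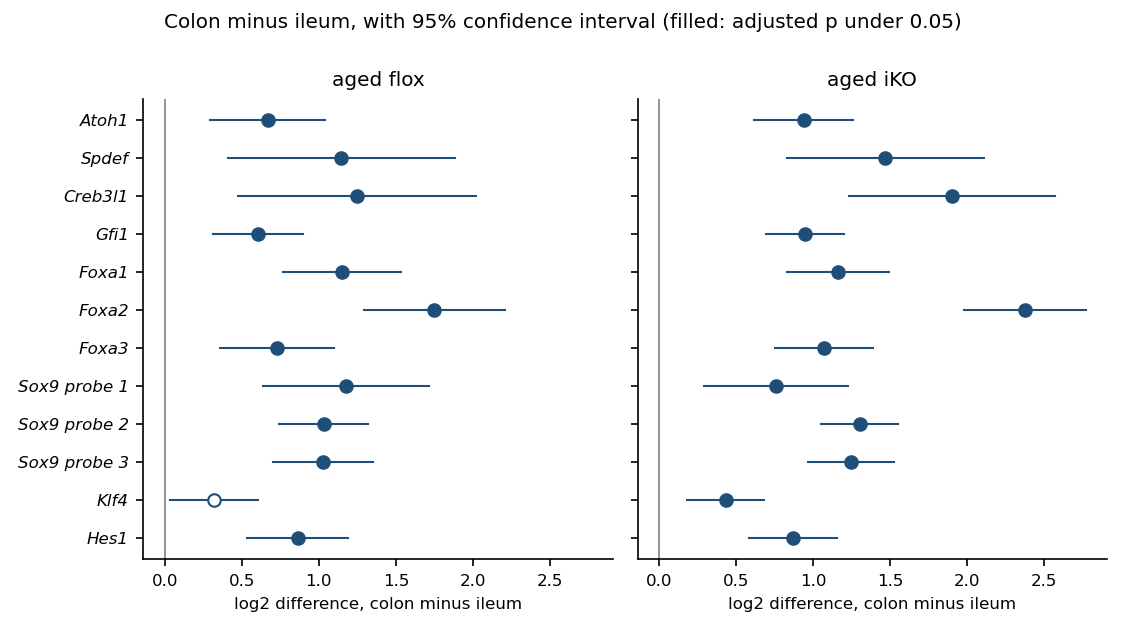
The log2 difference of colon minus ileum is plotted on the horizontal axis for each probe in aged Flox and aged iKO mice, with 95% confidence intervals as lines and filled points where the adjusted p was under 0.05. All points lie above 0, Foxa2 lies farthest right (1.75 and 2.37), and Klf4 in Flox (0.32) is the 1 open point; Sox9 probe 1 was not well above background in most ileum arrays.

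The cell type lists differed between the tissues at the same time. Epithelial sums were 1740 to 1830 in aged Flox ileum and 1130 to 1370 in aged Flox colon, and smooth muscle sums 421 to 485 and 576 to 676. Paneth sums were 3550 to 4230 and 48.9 to 65.5, with all 20 Paneth probes tested lower in Flox colon. Goblet sums overlapped in Flox, at 1540 to 1690 in ileum and 1410 to 1630 in colon, while 13 of 22 goblet probes passed as higher in Flox colon and 3 as lower (median 0.78). In iKO the goblet sums did not overlap, at 1600 to 1730 in ileum and 1920 to 2210 in colon, and 17 of 22 probes passed as higher and 3 as lower (median 1.03). The part of cell makeup in the factor levels was not tested.

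Other genes of the Notch pathway, from a list of 36 that includes Hes1, showed no call by genotype. By limma, 0 of 33 probes passed in young ileum, 0 of 33 in aged ileum and 0 of 43 in colon, while 2, 1 and 7 had an unadjusted p under 0.05. Over all probes tested that count was 932 of 22281, 2560 of 22281 and 2105 of 29176. The smallest p-values in young ileum were those of Notch4, a receptor (-0.30 ± 0.13), the Notch target Hes5 (-0.998 ± 0.43) and the feedback inhibitor Nrarp (-0.27 ± 0.15), each with an adjusted p of 0.999. In aged ileum they were Hes5 at -1.24 ± 0.46 (adjusted p = 0.336), Nrarp at 0.34 ± 0.17 (adjusted p = 0.456) and the ligand Dll1 at -0.38 ± 0.19 (adjusted p = 0.458). In colon they were the receptor Notch3 at 0.79 ± 0.14 (adjusted p = 0.162), Dll1 at -0.93 ± 0.18 (adjusted p = 0.221) and Hes5 at -0.77 ± 0.18 (adjusted p = 0.35). Between tissues, 4 of 43 list probes passed as higher and 10 as lower in Flox colon, and 11 and 12 in iKO colon. Over all 29246 probes tested, 32.2% were called in either direction in Flox and 42.9% in iKO, with 20.2% and 25.1% called higher. Whether the Notch list differed from all probes was not tested. Dll4, a ligand, was lower in colon by 0.47 ± 0.15 in Flox and by 0.94 ± 0.13 in iKO, and Jag1, another ligand, higher by 0.44 ± 0.12 and 0.53 ± 0.10; this pair was chosen after its values were seen. With age, both probes of Aph1a, a gamma-secretase subunit, were lower by 2.82 ± 0.14 and 1.90 ± 0.17 in Flox ileum and by 2.51 ± 0.13 and 2.05 ± 0.16 in iKO ileum; these too were named after their values were seen, as was Notch1, the 1 list probe called higher with age in Flox (0.41 ± 0.12).

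A second list held 32 other transcription factors of gut lineages. By limma, 0 of 37 probes passed by genotype in young ileum, 0 of 37 in aged ileum and 0 of 49 in colon, while 3, 2 and 6 had an unadjusted p under 0.05. Over all probes tested that count was 932 of 22281, 2560 of 22281 and 2105 of 29176. Among the smallest p-values in young ileum were those of Pax4, an endocrine factor (-1.67 ± 0.38, adjusted p = 0.327), and Cdx1 (-0.32 ± 0.14). In aged ileum they were those of the stem cell factor Ascl2 (-0.68 ± 0.23, adjusted p = 0.299), Tcf7l2 (0.38 ± 0.15) and Bhlha15, a factor of secretory cell architecture (0.29 ± 0.14). In colon they were those of Bhlha15 (1.18 ± 0.27, adjusted p = 0.307), the endocrine commitment factor Neurog3 (0.56 ± 0.15, adjusted p = 0.387) and Pax6 (0.95 ± 0.34, adjusted p = 0.577). Of the 49 probes, 13 passed as higher and 6 as lower in Flox colon, and 19 and 8 in iKO colon. Their medians were 0.30 and 0.37, beside 0.12 and 0.10 over all probes tested. Of all 29246 probes, 32.2% were called in either direction in Flox and 42.9% in iKO, with 20.2% and 25.1% called higher. Whether the list differed from all probes was not tested. Bhlha15 was lower in Flox colon by 2.13 ± 0.25, opposite to Spdef and Atoh1, and was named here after its value was seen.

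Across the 22 arrays, as deviations from each array's group mean, the factors did not all move together. Spdef and Foxa3 had a Pearson correlation of 0.84, Atoh1 and Spdef 0.66, Atoh1 and Foxa3 0.62, and Sox9 probes 2 and 3 0.83. Foxa2 had negative correlations with some, at -0.35 with Spdef, -0.34 with Atoh1 and -0.42 with Gfi1. This was not particular to Foxa2. Klf4 and Hes1 had the lowest value of all pairs (-0.47). Atoh1 and Sox9 probe 3 were at -0.40, Gfi1 and Hes1 at -0.38, and Spdef and Klf4 at -0.34. Colon iKO replicate 4 was the highest array for both Atoh1 (-0.15) and Spdef (4.12) and the lowest colon array for Foxa2 (2.26). Among 19145 probes well above background on all 22 arrays, the genes most like Spdef in these deviations were Sytl4 (0.86), Prkrip1 (0.85), Foxa3 (0.84), Klk1b21 (0.84) and Trim47 (0.84). Those most like Atoh1 were Srpr (0.89), Erp44 (0.88), Pmm2 (0.86), Golph3 (0.84) and Kdelr3 (0.84). Over the 6 group means, which the deviations leave out, Trim47 ran against Spdef (-0.33) and Erp44 and Pmm2 against Atoh1 (-0.97 and -0.52), while the other 7 ran with their factor (0.83 or above). These points share array, scaling and cell makeup, and the correlations are descriptions without a test.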

How the data were processed

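Total RNA of 22 samples was hybridised to 1-colour Agilent 4x44 arrays. The deposited scanner files hold spot intensity, made with Agilent Feature Extraction 9.5 per the submitters' processing notes; per the file headers, the processed signal is background-subtracted intensity on build mm7. The deposited flags mark outlier, saturated and well-above-background spots. The deposited series table held the same intensity values as the scanner files and was not used further.

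Here, unflagged spots of a probe were averaged as log2 signal minus the array's 75th percentile. A probe was tested where every array of at least 1 group in the fit had at least 0.5 of its spots well above background. limma 3.58.1 (R 4.3.3) was fitted to 15 ileum arrays, 7 colon arrays and 14 aged arrays of both tissues, with p-values adjusted by Benjamini-Hochberg over all probes tested; calls are at an adjusted p under 0.05, and intervals are 95%. The script was tested on simulated data. Named genes are all members, and from the pathway, factor and cell type lists the probes called by genotype and the 3 with the smallest p; the Sirt1 probes and tissue markers are checks. A list probe is not reported here. The members and lists were chosen with earlier results of these data known. Alternatives were normexp, quantile normalization, other filters, the brightest probe per gene, blocks for slide and replicate number, position on the slide, and leaving out each array.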

Additional observations from a re-analysis of the deposited data

Results flagged for a closer look

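Of 48 groups of 4 arrays in which a member probe could be tested for a single array far from the rest, 4 held one, and chance gives about 1 in 20 such groups. Spdef in aged iKO ileum had replicate 2 at 2.47, with the nearest other array at 1.80, a gap of 0.965 of the group's range. Foxa1 in young Flox ileum had replicate 3 at -1.01, with the nearest other at -0.70. Foxa3 in young Flox ileum had replicate 2 at -0.62, with the nearest other at -0.85. Hes1 in young iKO ileum had replicate 2 at -1.48, with the nearest other at -1.81. None of these 4 arrays belonged to a group in which that gene passed the genotype test.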

How the results depend on the processing

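Among called member values, 1 changed sign: Sox9 probe 1 between iKO colon and ileum was 0.76 as reported and -0.015 after normexp. Of the single-probe values recomputed, 2970 stayed on their side of the threshold, 64 no longer passed, and 9 newly passed. Of 3044 such values 111 changed sign, in 41 of 139 results, all but the Sox9 value above among values that were not called; Atoh1 by genotype in young ileum, for example, ran from -0.21 to 0.06. In aged ileum 33 probes were called by genotype, and 18 with the contrast's groups alone, 11 with slide as a fixed factor and 6 with position as a term; the member count fell from 1 to 0 in each, and to 0 with no filter on dim probes. In young ileum 8 probes were called, and 5 with the contrast's groups alone; in colon 30, and 55 with normexp and 1 with slide fixed. With age, 1783 Flox probes became 546 with no filter, 812 with the groups alone and 670 with slide fixed, and the 2 members became 0 in each; 2445 iKO probes became 990 with no filter and 1569 with the groups alone, and the 1 member became 0 in both. Genotype by age gave 0 probes, and 1 with normexp. Between tissues, 9430 Flox and 12539 iKO probes became 15987 and 19759 with no filter; genotype by tissue gave 6 probes, 3 with no filter and 2 with a stricter one. The cause was not tested, beyond the number of probes or arrays that each setting leaves.

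Leaving out 1 array at a time gave 6 to 12 calls in young ileum, 18 to 56 in aged ileum (members 0 to 1) and 7 to 29 in colon. It gave 611 to 1974 with age in Flox (members 0 to 3) and 1032 to 2639 in iKO (members 0 to 1). It gave 0 to 6 for genotype by age, 7133 to 9523 between tissues in Flox (members 9 to 11), 10514 to 12827 in iKO (members 12) and 2 to 8 for genotype by tissue.

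The replicate numbers were not shown to pair the arrays: the correlation of same-numbered arrays ran from -0.34 to 0.36, and in no set were all above 0.1 or was every array closest to its own number. With the replicate block 21 probes were called by genotype in aged ileum, 1 in colon and 0 for genotype by tissue. The block gave 0 member calls by genotype in aged ileum (Foxa2 -0.87, adjusted p = 0.101), 0 with age in Flox and 0 with age in iKO, and Atoh1 between Flox tissues had an adjusted p of 0.052. Arrays of 3 or 4 per group limit the precision, and Sox9 probe 1 had only a bound in Flox ileum.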

Other observations

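Probes of other secretory cell types leaned one way within a comparison of genotypes without any passing the test, and tuft cell probes leaned opposite ways in young ileum and colon. In young ileum 20 of 21 Paneth probes were higher in iKO, with a median difference of 0.12, while 18 of 20 enteroendocrine probes were lower, with a median of -0.27; by limma 0 of either list passed, and 0 and 5 probes had an unadjusted p under 0.05. Tuft cell probes in young ileum were lower in iKO for 12 of 14, with a median of -0.25. By limma 0 of these passed and 4 had an unadjusted p under 0.05. The tuft sums in young ileum did not share this direction: they overlapped, at 16.9 to 20.9 (median 19.8) in Flox and 17 to 23.2 (median 21.7) in iKO. In colon 16 of 19 tuft cell probes were higher in iKO, with a median of 0.21. Their sums were 21.6 to 32.5 in Flox and 28.9 to 48.9 in iKO. By limma 0 of these colon probes passed and 3 had an unadjusted p under 0.05. Over all probes tested, 932 of 22281 in young ileum and 2105 of 29176 in colon had an unadjusted p under 0.05.

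Cdx2, a homeobox factor of intestinal identity, was lower with age at 1 probe by 1.54 ± 0.09 in Flox ileum and by 1.41 ± 0.09 in iKO ileum. It was named after its values were seen, and any other Cdx2 probe is not described here. Of 37 probes tested from the list of other gut lineage factors, 0 passed as higher and 1 as lower with age in Flox ileum. In iKO ileum 4 passed as higher and 1 as lower. The shares of all probes called lower with age were 5.02% in Flox and 5.86% in iKO.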
